A study of Mus musculus with 24 samples.

Results

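Open chromatin was compared between Smad2 knockout and wild-type mouse embryonic stem cells while the cells were held in the paused state. The comparison covered 260539 of the 272268 intervals that the authors deposited for the paused cells. An interval entered when its normalized signal was 10 or more in at least 4 of the 12 libraries. Over both treatments of the study the authors deposited 572048 intervals. E14 embryonic stem cells were cultured on gelatin, in medium with serum and leukemia inhibitory factor (LIF), a cytokine that keeps such cells undifferentiated. Wild-type cells (WT) stood against the Smad2 knockout lines Smad2_KO1 and Smad2_KO2, with 4 libraries each. All 3 groups had received 200 nM INK128, an inhibitor of the kinase mTOR, for 12 hours, so the comparison has no group without it. Chromatin was assayed by ATAC-seq, in which the transposase Tn5 cuts and tags open DNA, from 50000 cells per library. The labels do not say how the knockouts were made, whether each line is 1 clone, or whether libraries of a line came from separate cultures. P-values therefore measure the spread between these libraries, which may be technical. The Smad2_KO1 and Smad2_KO2 libraries with the same number were close to each other: the chi-square per degree of freedom of their reads over intervals was 1.027, 1.001, 1.074 and 1.026 for numbers 1 to 4, where 1.0055 is the 95% limit of sampling noise. Pairs of libraries within a line gave 1.11 to 1.92. The number 2 pair differed by no more than sampling noise, so the 8 knockout libraries may not be 8 separate samples. Totals of calls, class means and read shares are given both as labelled and after averaging the lines by number, which counts each pair as 1 sample and leaves 4 knockout values against 4 WT. Counts within position classes, promoters and gene lists are as labelled unless said otherwise.

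Smad2 is a transcription factor that the receptors for Nodal, Activin and TGF-beta phosphorylate at the cell surface. It then binds Smad4, enters the nucleus and acts at enhancers with partners such as Foxh1. In embryonic stem cells this pathway keeps its own inhibitors active: Lefty1 and Lefty2 are secreted antagonists of Nodal, Smad7 blocks the receptors, and Ski and Skil are co-repressors of Smad complexes. The kinase mTOR couples growth to nutrients, and its inhibition brings embryonic stem cells into a slow, diapause-like state that is called pausing. The title of the series relates Nodal and Smad2 to pausing and to Pparg, a nuclear receptor of lipid metabolism.

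Gene starts held the most one-sided change. Of the 13386 tested intervals centred within 1000 bases of an annotated start, 3369 (25.2%) were lower with both knockout lines and 225 (1.68%) were higher. An interval is called here when each line differed from WT in limma at a Benjamini-Hochberg adjusted p under 0.05 and both moved the same way. Over all tested intervals 8.57% were called lower and 5.93% higher. Gene starts are also strong sites, with a median normalized signal of 211 against 25.7 over all tested intervals. The promoters below are printed because they are the gene starts with some of the largest changes, Fkbp6 and Cdkl4 higher and Upk3bl, Btla and Prox2 lower in the knockout lines. Each runs from 250 bases before to 50 bases after the start, 5′ to 3′ on the gene's strand, from RefSeq on GRCm38.p6, and capitals mark CpG dinucleotides. The windows are chr5:135349864-135350163, minus strand (Fkbp6), chr17:80563785-80564084, minus strand (Cdkl4), chr5:136057017-136057316, plus strand (Upk3bl), chr16:45224087-45224386, plus strand (Btla) and chr12:85106382-85106681, minus strand (Prox2).
Fkbp6: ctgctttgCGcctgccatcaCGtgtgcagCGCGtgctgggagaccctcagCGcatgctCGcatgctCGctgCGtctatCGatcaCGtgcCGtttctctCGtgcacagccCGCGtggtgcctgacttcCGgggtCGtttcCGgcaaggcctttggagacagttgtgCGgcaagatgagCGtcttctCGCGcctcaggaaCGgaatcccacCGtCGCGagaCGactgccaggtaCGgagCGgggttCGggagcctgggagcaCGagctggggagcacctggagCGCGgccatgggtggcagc
Cdkl4: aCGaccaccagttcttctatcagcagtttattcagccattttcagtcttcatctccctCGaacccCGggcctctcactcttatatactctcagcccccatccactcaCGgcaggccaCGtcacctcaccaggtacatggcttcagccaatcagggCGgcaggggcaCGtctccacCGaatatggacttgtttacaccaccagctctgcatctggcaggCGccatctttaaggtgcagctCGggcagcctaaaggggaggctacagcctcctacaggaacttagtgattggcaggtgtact
Upk3bl: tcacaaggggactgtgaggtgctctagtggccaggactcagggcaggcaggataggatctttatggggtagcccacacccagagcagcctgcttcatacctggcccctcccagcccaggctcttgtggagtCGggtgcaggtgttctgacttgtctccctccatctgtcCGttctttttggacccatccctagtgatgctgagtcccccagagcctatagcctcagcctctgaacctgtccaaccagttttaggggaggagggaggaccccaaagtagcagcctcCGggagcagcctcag
Btla: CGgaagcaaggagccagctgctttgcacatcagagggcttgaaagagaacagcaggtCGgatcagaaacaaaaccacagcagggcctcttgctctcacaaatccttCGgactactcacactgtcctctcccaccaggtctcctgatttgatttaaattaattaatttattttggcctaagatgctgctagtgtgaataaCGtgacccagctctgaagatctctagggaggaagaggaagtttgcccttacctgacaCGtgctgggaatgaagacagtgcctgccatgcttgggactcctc
Prox2: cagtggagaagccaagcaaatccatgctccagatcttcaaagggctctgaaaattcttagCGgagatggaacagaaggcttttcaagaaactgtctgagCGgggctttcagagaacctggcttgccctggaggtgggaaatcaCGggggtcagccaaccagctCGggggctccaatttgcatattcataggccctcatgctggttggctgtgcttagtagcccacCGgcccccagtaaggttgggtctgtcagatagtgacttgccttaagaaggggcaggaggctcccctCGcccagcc
Fkbp6 has a CpG-rich promoter with 32 CpG dinucleotides. The other promoters hold few, with 10 for Cdkl4, 3 for Upk3bl, 5 for Btla and 6 for Prox2. The NFY motif CCAAT was found in the Cdkl4 and Prox2 windows, on either strand, and the FOXH1 motif TGTNNATT in none of these 5. Both motifs were found in the window of Xlr3a, another of the highest-ranked starts, which is not printed.

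At the start of Fkbp6, a gene of the FK506-binding protein family that is needed in male germ cells, the interval chr5:135349927-135350127 had a normalized signal of 23.8, 27.9, 22.7 and 41.0 in the WT libraries, 95.0, 111, 98.5 and 121 in Smad2_KO1 and 98.9, 93.7, 102 and 86.4 in Smad2_KO2. Every knockout library lay above every WT library, and such lack of overlap was a condition for naming a gene start. The log2 fold change on the log2(value + 1) scale was 1.77 ± 0.16 (SE, n = 4 per line) for Smad2_KO1 and 1.63 ± 0.16 for Smad2_KO2 (limma adjusted p 1.4e-09 and 1.0e-08). At Upk3bl, which codes for a uroplakin-like membrane protein, the interval chr5:136057139-136057339 had signals of 121, 92.3, 86.3 and 87.4 in the WT libraries, 37.1, 35.3, 32.8 and 42.7 in Smad2_KO1 and 32.0, 40.5, 34.8 and 31.7 in Smad2_KO2. There all 8 knockout libraries lay below the 4 WT libraries, with a log2 fold change of -1.46 ± 0.15 (SE, n = 4 per line) for Smad2_KO1 and -1.54 ± 0.15 for Smad2_KO2 (limma adjusted p 3.8e-08 and 1.9e-08). Prox2, a Prospero-type homeobox gene, had signals of 75.6, 74.1, 101 and 92.7 in the WT libraries, 50.4, 42.6, 38.0 and 39.7 in Smad2_KO1 and 50.9, 42.8, 30.3 and 54.7 in Smad2_KO2. The log2 fold changes were -1.09 and -1.05 (limma adjusted p 1.6e-05 and 2.9e-05). Btla, an inhibitory receptor of lymphocytes, fell from a mean of 65.9 ± 12.2 (SD, n = 4) in WT to 30.0 ± 6.55 and 28.1 ± 4.91. Cdkl4, a cyclin-dependent kinase-like gene, rose from 23.9 ± 10.7 in WT to 53.9 ± 8.25 and 52.6 ± 14.6. The other gene starts of the 6 highest-ranked in each direction were Sec23b (a coat protein of vesicles leaving the endoplasmic reticulum), Xlr3a, Gm20385 and Spic (an ETS factor of macrophages) among the higher, and Eml1 (a microtubule-binding protein), Nr6a1 (an orphan nuclear receptor known to repress Pou5f1) and Gpr142 among the lower. Gpr142 lost the call without WT replicates 3 and 4, with a mean of -0.74 in place of -1.21. The smaller log2 fold change of the knockout lines ran from 0.90 (Spic) to 1.63 (Fkbp6) among the 6 higher starts and from -1.05 (Prox2) to -1.46 (Upk3bl) among the 6 lower ones. Nr6a1 had signals of 48.6, 61.2, 122 and 124 in the WT libraries and 33.8 to 46.6 in the knockouts. Its mean log2 fold change of -1.15 was -0.56 without WT replicates 3 and 4 and -1.76 without WT replicates 1 and 2. Xlr3a belongs to a family of near-identical copies, so its reads may be shared with other copies. Of intervals that met the conditions for naming, 78 higher and 1061 lower ones lay at gene starts.

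Promoter windows of 9449 genes overlapped a tested interval. These gave 10557 windows, of which 3201 (30.3%) overlapped an interval called lower and 122 (1.16%) one called higher. On the loess scale, which centres each library along signal height, these shares were 2.62% and 3.44%, and in the strongest 25% of promoters the share called lower was 0.834% instead of 47.0%. Windows of 1 gene or of facing genes can share an interval, and 9297 intervals stood behind them. The promoters called higher were CpG-poor and weak, with a median of 6 CpG dinucleotides and a median signal of 44.0. Those called lower had a median of 19 CpG dinucleotides and a median signal of 333, against 21 and 236 for those not called. The share called lower was 16.1% with 0 to 3 CpG dinucleotides, 36.9% with 9 to 15, 38.7% with 16 to 25 and 23.4% with 26 or more. The most CpG-rich promoters were not the ones most often lower. Among the strongest 25% of promoters the share fell from 61.5% at 9 to 15 CpG dinucleotides to 31.5% at 26 or more. Over all promoters on the loess scale, the share called lower fell with CpG count, from 8.43% at 0 to 3 to 1.22% at 26 or more. Median signals of these classes were 32.3 and 293, so CpG count and signal height went together.

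Of the 18 motifs counted in these windows on both strands, CCAAT, the NFY motif, was the one with the widest gap between promoters called lower and not called. It stood in 53.4% of those called lower, 41.0% of those called higher and 35.7% of those not called. All promoters in the table held it in 38.2%. Among the strongest 25%, 52.6% of promoters with CCAAT and 37.3% of those without it were called lower. The gap there was wider for some rarer motifs. It was 72.1% of 43 promoters against 46.6% for the octamer ATGCAAAT and 66.7% of 90 against 46.3% for TATAAA. Some motifs went the other way, such as the GC box at 45.6% with it and 52.1% without. The GC box GGGCGG was in 23.0% of promoters called higher and in 65.6% of all tested ones. The FOXH1 motif, named for the Smad2 partner, was in 6.65% of promoters called lower, 9.02% of those called higher, 6.14% of those not called and 10.4% of all promoters in the table. Among the strongest 25%, 59.9% of 147 promoters with the FOXH1 motif and 46.3% of those without it were called lower. The GC-rich SMAD motif GGCGCC went the other way there, at 41.9% of 587 with it and 48.5% without. These shares describe letters in a window. They were not tested, and base composition differs between the groups.

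Depth, as reads in the deposited intervals, was 11456986 to 14763067 in WT, 14946853 to 17115069 in Smad2_KO1 and 13173783 to 20007829 in Smad2_KO2. Of the stem cell markers, Nanog, Sox2, Esrrb and Zfp42 had their strongest interval among the highest signals, the lowest at percentile 97.2 (Nanog), and Pou5f1 was at 79.8. Several markers of other cell types were open as well, with Gata4, Gata6, Gata3 and Pax6 at percentile 95.4 (Gata4) and up. The remaining markers of other cell types ran from 35.8 (Sox7) and 50.8 (Col1a2) to 94.1 (Sox17). These intervals thus do not tell the cell types apart. Of all 17 markers Pou5f1 (-0.51 and -0.41) and the fibroblast gene Col1a1 (-0.47 and -0.43) were called lower and none higher. Their part in the results was not tested. In bulk libraries, fewer cells with an open site and less opening per cell cannot be told apart.

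Against WT, 51283 intervals (19.7%) passed with Smad2_KO1 and 52071 (20.0%) with Smad2_KO2. With both lines 15454 were higher and 22326 lower, and in 11216 and 10167 of these all 8 knockout libraries lay on one side of the 4 WT libraries. No interval passed between the knockout lines in limma or in edgeR's quasi-likelihood test on recovered reads, and 5357 (2.06%) had an unadjusted limma p under 0.05. In the authors' deposited table of knockout against WT, 58821 intervals had a false discovery rate under 0.05, and 36333 of the 37780 intervals called here were among them with the same direction. Averaging the lines by number gave 21223 higher and 29309 lower, in 1 contrast to WT that does not ask both lines to pass. The 8 knockout libraries as 1 group, also in 1 contrast, gave 34452 higher and 40880 lower. Fits in which no number stood in both lines, with 2 libraries per line, gave 1793 and 2243 higher and 4487 and 5516 lower. The split between directions depends on how libraries are scaled: 40.9% of calls were higher after centring each library on its median log2 ratio, 64.7% on the deposited scale and 71.6% on library totals. The median log2 fold change of all intervals was 0.01, 0.12 and 0.15 on these scales. Directions below are relative to the median interval.

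By position, gene starts made up 5.14% of tested intervals, 15.1% of those called lower and 1.46% of those called higher. The mean centred log2 signal over gene starts was 7.31 ± 0.15 (SD, n = 4) in WT and 7.14 ± 0.04 (n = 8) in the knockouts, a difference of -0.17 (exact two-sided permutation p 0.0121, 0.0242 adjusted over 6 classes). Intervals inside genes went the other way. Their mean was 4.82 ± 0.03 (SD, n = 4) in WT and 4.90 ± 0.02 (n = 8) in the knockouts, 0.08 higher in the knockouts (exact permutation p 0.00202, adjusted 0.0121), and all 8 knockout libraries exceeded all 4 WT libraries. Intergenic intervals within 50 kb of a gene differed by 0.04 and distal ones by 0.04 (exact permutation, adjusted p 0.0242 and 0.0315). Far gene ends differed by 0.02 (adjusted exact permutation p 0.172), and ends whose strand is not in the reference table by -0.10 (adjusted p 0.0315). After averaging by number no class passed, with adjusted p from 0.129 to 0.257 in an exact permutation test whose smallest p is 0.0286. Without WT replicate 1 or without WT replicate 4 the gene start difference was -0.14 or -0.12, and neither passed (exact permutation, adjusted p 0.0727 each). Near and distal intergenic intervals and ends of unknown strand also lost the call without either library, and distal ones without WT replicate 2 too.

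Signal height moved with these class differences. Of the 10% of intervals with the highest mean signal, 34.8% were called lower and 0.998% higher. In the lowest 10%, with mean signals of 6.32 to 11.9, the shares were 1.12% and 4.39%. The entry rule of 10 or more in at least 4 libraries could be met by part of the knockout libraries alone. The WT libraries alone met it only when all of them reached 10. Weak intervals thus entered more readily when higher in the knockouts, so the excess of higher calls there cannot be separated from the entry rule. The median signal was 211 at gene starts, 23.9 in gene bodies and 22.7 in distal intervals. Compared within the highest 10%, 34.0% of gene starts, 29.4% of far ends, 29.0% of ends of unknown strand, 34.3% of gene body, 37.5% of near intergenic and 39.7% of distal intervals were called lower. Gene starts were thus less often lower than gene body and intergenic intervals and more often lower than other gene ends. Gene starts were seldom higher, at 0.186% against 1.64% in gene bodies and 2.00% in distal intervals. When each library was instead centred along signal height with a loess curve, the gene start difference was -0.02 (exact permutation, adjusted p 0.56) and 3.17% of gene starts were called lower. In the highest 10% by signal, 12.9% of distal intervals were called lower on that scale, against 2.05% of gene starts. Over all positions the loess scale gave 11825 higher and 13245 lower intervals.

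**Figure D1:**
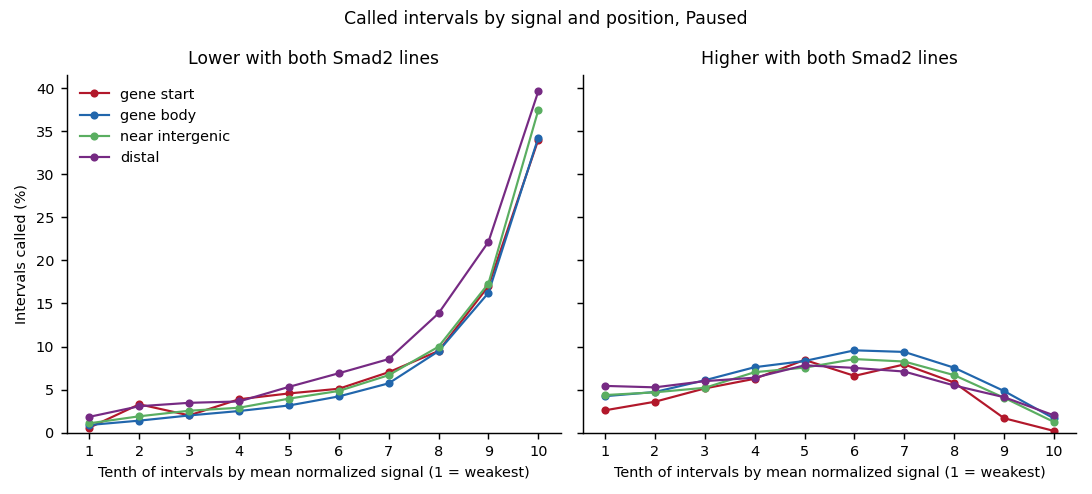
Share of tested intervals called lower (left) and higher (right) with both knockout lines, in percent, for 10 equal groups of mean normalized signal and for 4 position classes. The share called lower is highest in the strongest group in each class shown and reaches 39.7% in distal and 34.0% in gene start intervals of the highest group.

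Read shares moved the same way. The highest 10% of intervals took 49.0% ± 2.16 (SD, n = 4) of a WT library's reads, 45.4% ± 0.897 in Smad2_KO1 and 45.3% ± 1.30 in Smad2_KO2 (exact permutation p 0.00404, 0.0283 adjusted over 7 shares). The groups overlapped, since WT replicate 3 (46.7%) lay below Smad2_KO2 replicate 4 (47.2%). After averaging by number no share passed (smallest exact permutation p 0.0571, adjusted 0.3). Gene starts took 23.2, 20.4, 20.1 and 23.5% in the WT libraries, 20.2, 19.9, 20.2 and 20.9% in Smad2_KO1 and 19.9, 19.8, 19.9 and 21.2% in Smad2_KO2. WT replicates 1 and 4 were high, while WT replicates 2 and 3 lay within the range of the knockout libraries. That difference did not pass as labelled (exact permutation, adjusted p 0.0943). The share of reads at strong sites differs between WT libraries too, and its part in the class differences was not tested.

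Single intervals changed by far more than the class means. Those named here were picked among intervals without overlap between knockout and WT libraries. Near Hadh, which codes for a mitochondrial enzyme of fatty acid oxidation, the intragenic interval chr3:131260585-131260785 had signals of 8.64, 21.5, 19.4 and 19.9 in the WT libraries, 58.0, 57.1, 54.4 and 63.6 in Smad2_KO1 and 59.9, 53.2, 56.1 and 53.6 in Smad2_KO2. All knockout libraries exceeded all WT libraries, with log2 fold changes of 1.66 ± 0.20 (SE, n = 4 per line) for Smad2_KO1 and 1.60 ± 0.20 for Smad2_KO2 (limma adjusted p 3.5e-07 and 6.7e-07). Inside Gm38396, a predicted gene, chr17:17199904-17200104 was the strongest of the 8 intervals ranked highest, at 45.3, 44.0, 70.1 and 68.9 in the WT libraries, 181, 243, 149 and 152 in Smad2_KO1 and 166, 191, 174 and 154 in Smad2_KO2. The log2 fold changes of 1.55 and 1.50 were alike in size in both lines. An intergenic interval whose nearest gene was Strap, a WD-repeat protein known to bind TGF-beta receptors, rose by 1.50 and 1.59 on the log2 scale. Without WT replicates 1 and 2 its mean rise was 0.93. The others were inside Ptprs (a receptor tyrosine phosphatase), Lrrc23 (a protein of the sperm flagellum) and Trim3 (a ubiquitin ligase), outside Pdpn (podoplanin, a membrane glycoprotein), and at the start of Fkbp6 described above. The smaller log2 fold change of the knockout lines ran from 1.48 for Trim3 to 1.63 for Fkbp6. Lrrc23 had a mean of 1.55, and 0.91 without WT replicates 1 and 2.

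The intervals that fell most were intergenic in 7 of 8 cases. Lack of overlap between knockout and WT libraries was again a condition for naming. The largest fall was at chr2:108032782-108032982, far from any gene, with Kcna4 (a potassium channel) the nearest. Its signals were 46.4, 17.2, 96.0 and 99.3 in the WT libraries, 4.75, 7.25, 6.05 and 7.95 in Smad2_KO1 and 9.99, 9.00, 7.86 and 3.28 in Smad2_KO2. No knockout library reached the entry limit of 10, so this interval entered through the WT libraries alone and had to be lower in the knockouts. The lack of overlap there was thus set by the entry rule. Every knockout library lay below the lowest WT library, and the log2 fold change was -2.97 ± 0.37 (SE, n = 4 per line) for Smad2_KO1 and -2.84 ± 0.37 for Smad2_KO2 (limma adjusted p 7.9e-07 and 1.7e-06). Near Lrrc8b, a subunit of volume-regulated anion channels, chr5:105500413-105500613 had signals of 36.7, 31.1, 110.0 and 84.8 in the WT libraries, 11.4, 9.06, 10.4 and 11.9 in Smad2_KO1 and 11.0, 18.0, 11.2 and 9.85 in Smad2_KO2. Knockout signals there were near the entry limit of 10 while WT signals were several times higher. The interval within a gene was in Tox, an HMG-box factor of T cell development, at 57.7 ± 30.1 (SD, n = 4) in WT and 12.3 ± 3.32 and 13.3 ± 3.45 in the knockouts. The rest were nearest to Tank, Pudp, Cdk5rap2, Pmfbp1 and Rap2b, with log2 fold changes of -1.98 (Rap2b) to -2.29 (Pudp) with Smad2_KO1. In all 8 of these falling intervals WT replicates 3 and 4 were both above WT replicates 1 and 2. Among all 8035 falling intervals that met the conditions for naming, this order held in 18.1% and the opposite order in 20.5%. Without WT replicates 3 and 4, 16332 intervals were called lower, and the mean log2 fold change was -1.41 in place of -2.17 at Pudp, -1.37 in place of -2.06 at Tox, -1.11 in place of -2.04 at Pmfbp1 and -1.08 in place of -1.99 at Rap2b.

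**Figure D2:**
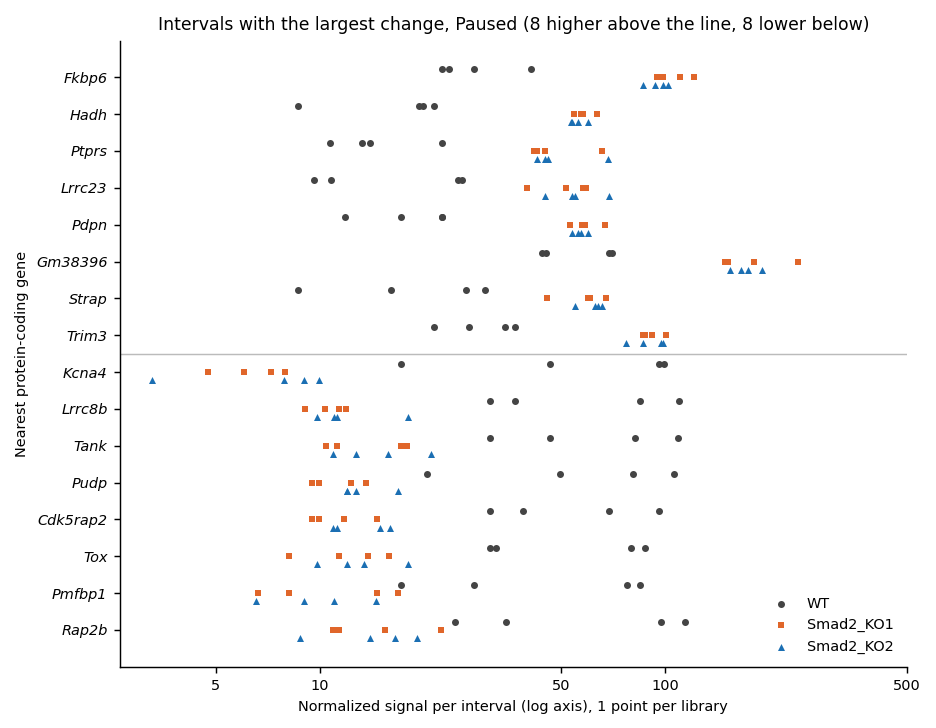
Normalized signal (log axis) of the 16 intervals with the largest change, 1 point per library, named by the nearest protein-coding gene. Intervals above the line were higher and those below it lower with both knockout lines. In each the 8 knockout points lie on one side of the 4 WT points, which was a condition for naming.

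The Lefty locus on chromosome 1 was the Nodal target region with the largest fall. Lefty2 or Lefty1 was the nearest gene of 14 tested intervals. Of these 8 were lower with both lines, none was higher, and 13 had a negative log2 fold change with both lines. The strongest fall was at chr1:180924827-180925027, in the intergenic stretch outside Lefty1, with signals of 478, 485, 449 and 384 in the WT libraries, 146, 148, 166 and 145 in Smad2_KO1 and 153, 177, 171 and 180.5 in Smad2_KO2. Every knockout library was well below every WT library, and the log2 fold change was -1.66 ± 0.10 (SE, n = 4 per line) for Smad2_KO1 and -1.49 ± 0.10 for Smad2_KO2 (limma adjusted p 2.4e-14 and 1.1e-12). The strongest site of the locus, chr1:180888651-180888851, lies 4.36 kb outside Lefty2 and had signals of 731, 605, 669 and 748 in the WT libraries, 438, 425, 456 and 481 in Smad2_KO1 and 425, 454, 474 and 568 in Smad2_KO2. It fell by 0.71 and 0.62 on the log2 scale, and the groups did not overlap.

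Sites inside the Lefty genes changed less than these flanking sites. The strongest interval in Lefty2, chr1:180894365-180894565, had signals of 124, 131, 106 and 113 in the WT libraries, 107, 93.3, 99.3 and 101 in Smad2_KO1 and 94.9, 95.2, 95.4 and 95.2 in Smad2_KO2. It was called lower by a narrow margin, at -0.34 and -0.40 (limma adjusted p 0.0334 and 0.0111), and the groups overlapped. The call was lost without Smad2_KO1 replicate 2 or 3, without WT replicate 1, 2 or 4, and on the deposited, library total and loess scales. The strongest interval in Lefty1 missed the call, at -0.46 and -0.26 (limma adjusted p 0.00424 and 0.0979). It was called after averaging by number, which uses 1 contrast to WT and does not ask both lines to pass. Nodal itself, the ligand, had -0.05 and -0.09 at its strongest interval, with WT signals averaging 263 ± 24.0 (SD, n = 4) and knockout signals 272 ± 21.7 and 263 ± 8.16. At the start of Pparg the values were 159 ± 13.3, 154 ± 7.31 and 148 ± 19.1, and neither line passed (limma adjusted p 0.346 and 0.174). The strongest interval of Smad2 itself had -0.22 and -0.26 (limma adjusted p 0.14 and 0.0859) and passed without WT replicate 3. None of the 11 tested intervals within Smad2 was called or averaged under 10 in the knockouts (lowest mean 13.7), so the signal shows no deletion of a whole interval. What the knockouts removed is not given in the sources used here.

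The neighbourhood with the largest rise lay on chromosome 5 around Zfp951, a gene of the zinc finger class, and the predicted gene Gm20385. Over 233 kb (chr5:104660633-104893790), 17 of 37 intervals were higher with both lines and none was lower. In 12 of the 37, 4 of the 17 among them, no WT library reached the entry limit of 10, so these entered through the knockout libraries alone and had to be higher there. WT means ran up to 107, with a median of 9.05. Inside Zfp951, chr5:104825660-104825860 had 7.56, 10.7, 11.9 and 3.97 in the WT libraries, 41.8, 28.1, 28.5 and 25.8 in Smad2_KO1 and 43.0, 34.5, 26.9 and 18.6 in Smad2_KO2. In the intergenic stretch, chr5:104770213-104770413 had 48.6, 68.7, 80.9 and 57.0 in the WT libraries, 169, 173, 145 and 174 in Smad2_KO1 and 149.8, 171, 152 and 154 in Smad2_KO2. At both sites the lowest knockout library exceeded the highest WT library. The log2 fold changes were 1.71 and 1.67 at the first (limma adjusted p 2.2e-05 and 3.3e-05) and 1.28 and 1.21 at the second (limma adjusted p 1.1e-08 and 3.6e-08). The start intervals of Gm20385 and Zfp951 rose as well, by 1.03 and 1.05 and by 0.86 and 0.82. Genes of the zinc finger class have close relatives in the genome, and how reads matching several copies were treated is not given in the sources used here.

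**Figure D3:**
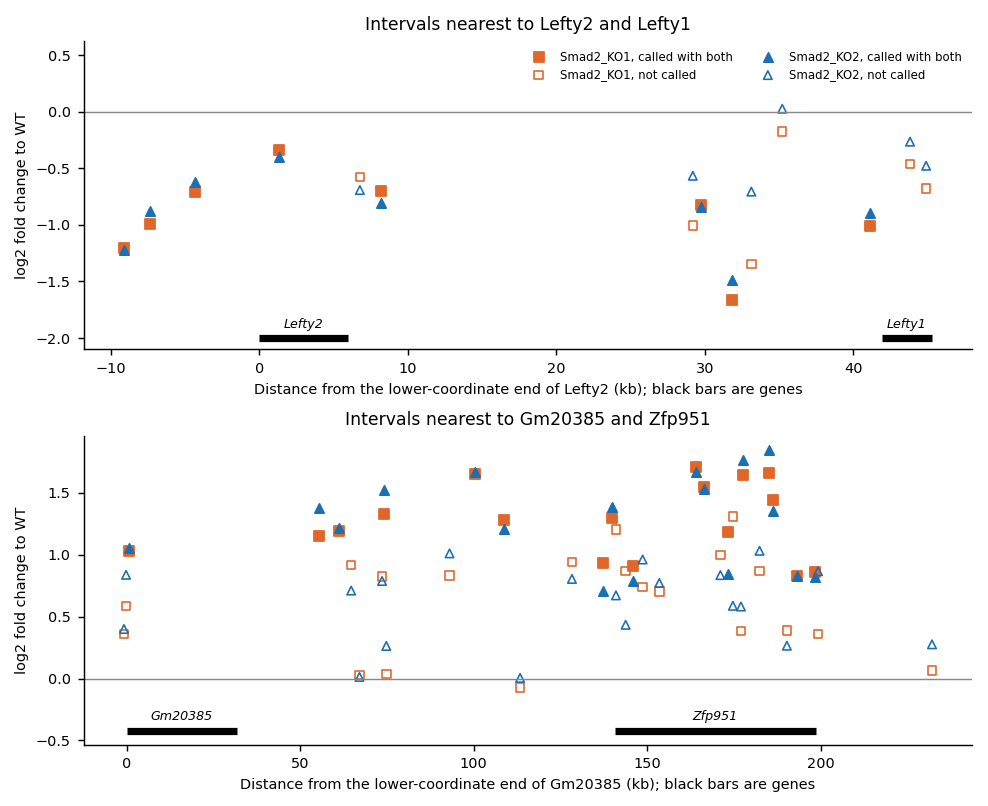
Log2 fold change to WT of each tested interval nearest to Lefty2 or Lefty1 (top) and to Gm20385 or Zfp951 (bottom), against distance in kb along the chromosome, for Smad2_KO1 (squares) and Smad2_KO2 (triangles). Filled symbols were called with both lines: 8 of 14 intervals in the top panel, all below 0, and 17 of 37 in the bottom panel, all above 0.

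Taking all genes the same way, a neighbourhood was defined as the tested intervals nearest to 1 protein-coding gene, and its value in a library as their mean centred log2 signal. Of 13247 genes with at least 5 intervals, 1892 (14.3%) had a neighbourhood higher and 890 (6.72%) one lower with both lines. Neighbourhoods called lower had stronger intervals, with a median signal of 33.0 against 24.2 for those called higher. Weak intervals, which entered more readily when higher in the knockouts, count in neighbourhood means too. In the 10 neighbourhoods with the largest rises, named below, the median signal was 14.0 (Pramel7) to 27.7 (Slc27a5). Without the entry rule 1829 neighbourhoods were higher and 857 lower. The part of that rule in the excess of higher neighbourhoods was not tested beyond this. Averaging the lines by number gave 2393 higher and 1209 lower, in 1 contrast to WT that does not ask both lines to pass. On the loess scale 937 of the higher and 764 of the lower ones kept their call. Zfp951 led the higher ones, with 13 of 27 intervals higher and a difference of 0.98 ± 0.08 (SE, n = 4 per line) and 0.94 (limma adjusted p 9.3e-06 and 1.2e-05). Of the 37 intervals around Zfp951 and Gm20385, 12 entered through the knockout libraries alone, so part of the rise there is set by the entry rule. Relative to the WT mean the Zfp951 libraries spanned -0.13 to 0.13 in WT, 0.93 to 1.07 in Smad2_KO1 and 0.87 to 0.98 in Smad2_KO2. Nat3, an arylamine N-acetyltransferase, followed with 0.80 and 0.76, and Slc27a5, a bile acid and fatty acid acyl-CoA synthetase, had 0.76 and 0.65. Pramel7, a PRAME-family gene of early embryonic cells, had 0.73 and 0.71 and the olfactory receptor gene Olfr836 0.71 and 0.80. BC053393, Gm20385, Gm3325, Gm46305 and Gm3604 completed the 10. Olfactory receptor genes have close copies, and reads that match several copies are uncertain.

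Of the lower neighbourhoods, Lefty2 (-0.75 and -0.77) and Lefty1 (-0.90 and -0.65) were both among the 10 with the largest fall. Lefty1 libraries spanned -0.10 to 0.09 around the WT mean in WT, -1.10 to -0.77 in Smad2_KO1 and -0.72 to -0.55 in Smad2_KO2. The ranges of the knockout lines did not overlap at Lefty1, yet the difference between lines did not pass (limma adjusted p 0.999). Sp5, a transcription factor and known target of Wnt signalling, fell by 0.62 and 0.67 (limma adjusted p 1.4e-04 and 7.1e-05), and Wls, which carries Wnt proteins to the cell surface, by 0.62 and 0.73. Stx3, a syntaxin of membrane fusion, had 6 of 14 intervals lower and a difference of -0.60 ± 0.06 and -0.64. Gabra3 (a GABA receptor subunit on the X chromosome) had -0.71 and -0.65, Gbp10 (an interferon-inducible guanylate-binding protein) -0.73 and -0.76, Npcd -0.62 and -0.65 and Tgif2lx1 (a TGIF-related homeobox gene) -0.75 and -0.78. At Tgif2lx1 1 of 7 intervals was called, and its spread was wide. Without WT replicates 3 and 4 it lost the call, at a mean of -0.56, and Wls was at -0.44 in place of -0.67. In each neighbourhood named here the 8 knockout libraries lay on one side of the 4 WT libraries.

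**Figure D4:**
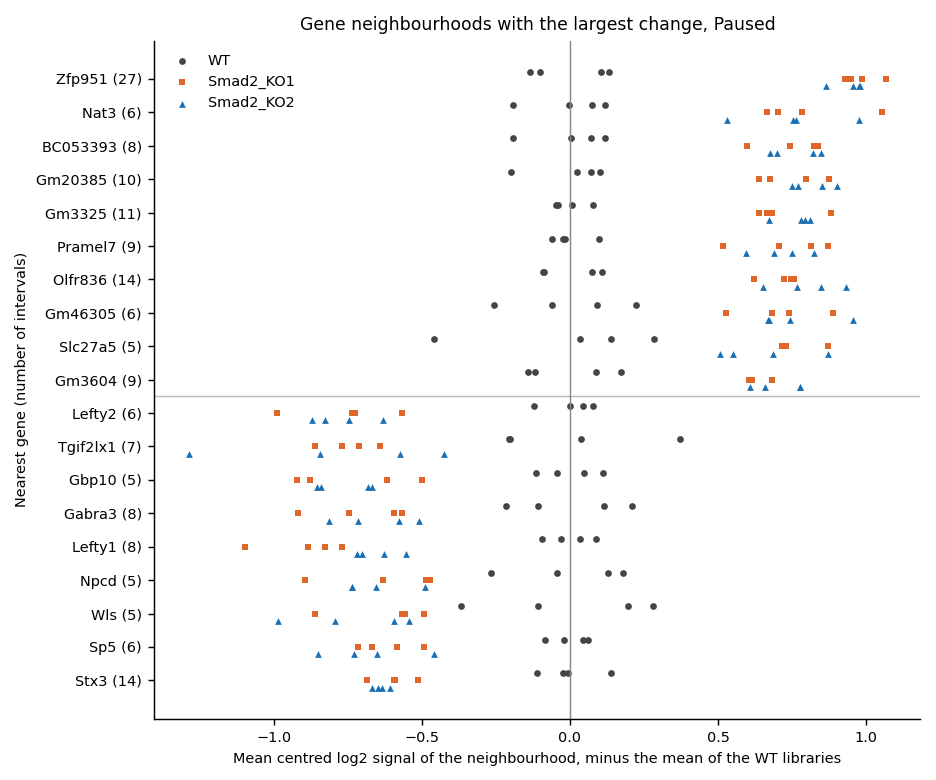
Mean centred log2 signal of the named gene neighbourhoods in each library, minus the mean of the 4 WT libraries, with the number of intervals in brackets. Zfp951 has the highest knockout values (0.93 to 1.07 in Smad2_KO1), and in every row the knockout points lie on one side of the WT points.

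Along chromosomes, 653 of 2394 windows of 1 Mb (27.3%) were higher with both lines and 215 (8.98%) lower. The differences ran from -0.45 to 0.50 on the log2 scale, around a median of 0.04. Weak intervals, which entered more readily when higher in the knockouts, count in window means too. In the windows with the largest rises, named below, the median signal was 15.8 to 21.1. Without the entry rule 674 windows were higher and 198 lower. The part of that rule in the excess of higher windows was not tested beyond this. On the loess scale 225 windows were called higher and 490 lower. Averaging the lines by number gave 749 and 255, in 1 contrast to WT that does not ask both lines to pass. Of the windows called higher, the largest rise was on chromosome 12. chr12:20000001-21000000, with 9 predicted genes, differed by 0.50 ± 0.05 (SE, n = 4 per line) and 0.49 (limma adjusted p 8.2e-07 and 1.6e-06), and 12 of its 39 intervals were higher. chr9:19000001-20000000, a cluster of olfactory receptor genes with Zfp317, had 0.43 and 0.50. chr2:87000001-88000000, another olfactory receptor cluster with Pramel7, had 0.42 and 0.45, and chr7:42000001-43000000, with vomeronasal receptor and zinc finger genes, 0.35 and 0.39. The fifth, chr8:77000001-78000000, holds Nr3c2 (the mineralocorticoid receptor) and Ednra (an endothelin receptor) and had 0.35 and 0.36 with 18 of 105 intervals higher.

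Of the windows called lower, the largest fall was at chr17:52000001-53000000, which holds Kcnh8, a voltage-gated potassium channel. It differed by -0.44 ± 0.03 (SE, n = 4 per line) and -0.46 (limma adjusted p 1.4e-07 and 5.6e-08), with 10 of 29 intervals lower and none higher. Its libraries spanned -0.01 to 0.01 in WT, -0.48 to -0.37 in Smad2_KO1 and -0.58 to -0.38 in Smad2_KO2. chr13:5000001-6000000, with the transcription factor gene Klf6, had -0.29 and -0.30 and 22 of 75 intervals lower. Among those with the largest falls were also chrX:22000001-23000000 with no protein-coding gene (-0.36 and -0.37) and chrX:16000001-17000000 with Maoa and Maob, the monoamine oxidases (-0.29 and -0.30). The X chromosome had the lowest median of the autosomes and X, at -0.08, with 32 windows lower and 5 higher. Its median in the knockout libraries ran from -0.10 to -0.05 and in the WT libraries from 0.00 to 0.03, without overlap. Of the autosomes, chromosome 6 had the highest median, 0.07.

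Gene lists were read by counts, beside the 5.93% higher and 8.57% lower over all intervals and their median log2 fold change of 0.01. Neighbourhoods of a list stand beside the 14.3% higher and 6.72% lower over all neighbourhoods. On the deposited and library total scales, Nodal and Activin targets, FGF and ERK, neural and Hox genes kept more lower than higher intervals. The Wnt, trophoblast, glycolysis, mTOR and receptor lists had more higher than lower ones there. Around the 15 Nodal and Activin targets, 9 of 289 intervals were higher and 40 (13.8%) lower, with a median of -0.10. The list's median signal was 24.5, and it held 9 higher and 33 lower on the loess scale. Among the members with the most calls, Ski had 1 higher and 6 lower intervals and Eomes 3 and 3. Within 20 kb of these genes 33 of 175 were lower and 2 higher. Of the 13 neighbourhoods tested, 6 were lower: Lefty1, Lefty2, Ski (-0.24 and -0.20), Skil (-0.26 and -0.30), Smad7 (-0.19 and -0.19) and Fgf8 (-0.22 and -0.17), the last a growth factor of gastrulation. The neighbourhood of Gsc, a homeobox gene of the organizer, was higher (0.19 and 0.21), a call lost on the loess scale. Smad7 libraries, relative to the WT mean, spanned -0.07 to 0.07 in WT and -0.29 to -0.07 in the knockouts. Around the receptors and Smads themselves, 24 of 355 intervals were higher and 27 (7.61%) lower. Around Smad2, Smad1 and Tgfbr2 the calls of the list were most frequent (7 higher and 3 lower, 6 and 4, and 1 and 6). Of this list, 4 of 12 neighbourhoods were called, all higher: Acvr1c (the receptor ALK7, 0.29 and 0.33), Smad1 (0.19 and 0.14) and Smad9 (0.22 and 0.22), which act in BMP signalling, and Smad2 (0.20 and 0.18). The calls for Smad1, Smad2 and Smad9 were lost on the loess scale, where that for Acvr1c was kept. Of the BMP list, Bmpr2 (0.24 and 0.29) and Id2 (0.19 and 0.15), a BMP target, had higher neighbourhoods, of which that of Id2 was lost on the loess scale.

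Like all tested intervals, lists of neighbouring pathways and of differentiation genes held more lower than higher intervals in several cases. On the loess scale 4.54% of all intervals were higher and 5.08% lower. The shares there were 1.94% and 9.71% for neural, 0.457% and 8.22% for Hox and 3.98% and 5.31% for trophoblast genes. Around FGF and ERK genes 15 of 404 intervals were higher and 60 (14.9%) lower, and Dusp6, a phosphatase that ERK induces against itself, had 11 lower intervals and a neighbourhood at -0.24 and -0.20. The list's median signal was 28.8, with 10 higher and 35 lower on the loess scale. Around Dusp6, Dusp4 and Fgfr2 the calls of the list were most frequent (2 higher and 11 lower, 2 and 10, and 3 and 7). Of 17 Wnt pathway neighbourhoods 5 were called, all lower: Sp5, the ligands Wnt3a (-0.33 and -0.35) and Wnt8a (-0.24 and -0.28), the agonist Rspo3 (-0.41 and -0.26) and the inhibitor Notum (-0.25 and -0.27), the last lost on the loess scale. Around Tcf7l1, Tcf7l2 and Ctnnb1 the calls of the list were most frequent (7 higher and 4 lower, 5 and 6, and 3 and 7). Around neural genes 8 of 206 intervals were higher and 28 (13.6%) lower, and the neighbourhoods of Nes (-0.43 and -0.36), Pax3 (-0.32 and -0.36), Neurod1 (-0.31 and -0.31) and Map2 (-0.27 and -0.30) were lower. Around Pax3, Zic1 and Map2 the calls of the list were most frequent (0 higher and 5 lower, 1 and 4, and 0 and 4). Around Hox genes, which pattern the body axis, 2 of 219 intervals were higher and 26 (11.9%) lower, with a median of -0.22 and a median signal of 37.1. Of 16 Hox neighbourhoods 6 were called, all lower, with Hoxb6 the most changed (-0.59 and -0.49). Around Hoxc13, Hoxb1 and Hoxa11 the calls of the list were most frequent (0 higher and 3 lower, 0 and 3, and 0 and 2). Around trophoblast genes 20 of 377 intervals were higher and 39 (10.3%) lower, and of 14 neighbourhoods those of Cdx2 (-0.35 and -0.47) and Tfap2c (-0.18 and -0.19) were lower and that of Ascl2 (0.26 and 0.21) higher, the last lost on the loess scale. Of 8 neighbourhoods of cell cycle inhibitors and D cyclins, Cdkn1a was lower (-0.29 and -0.31). Around primitive endoderm genes the counts went the other way: 38 of 361 intervals were higher and 23 (6.37%) lower. Hnf4a (0.37 and 0.40), Dab2 (0.19 and 0.19) and the basement membrane genes Col4a2 (0.33 and 0.24) and Lama1 (0.20 and 0.25) had higher neighbourhoods, and Foxa2 (-0.17 and -0.14) a lower one. On the loess scale the calls for Lama1 and Foxa2 were lost. Around Dab2, Lamb1 and Lama1 the calls of the list were most frequent (6 higher and 3 lower, 3 and 5, and 4 and 2).

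Pluripotency lists stood near the counts over all intervals. Around naive pluripotency genes such as Klf4 and Esrrb, 39 of 563 intervals were higher and 36 (6.39%) lower, and none of 11 neighbourhoods was called in limma, with 4 higher and 0 lower at unadjusted p under 0.05 with both lines. Around Nr5a2, Tbx3 and Klf5 the calls of the list were most frequent (9 higher and 6 lower, 10 and 4, and 2 and 8). Of the core list, Dppa4 had a higher neighbourhood (0.38 and 0.48, limma adjusted p 5.0e-04 and 1.4e-04), with libraries at -0.03 to 0.03 in WT and 0.30 to 0.54 in the knockouts. Around Sox2, Sall4 and Lin28a the calls of the list were most frequent (14 higher and 12 lower, 1 and 4, and 2 and 2). Of the LIF list, Socs3, the feedback inhibitor of Stat3 signalling, had a lower one (-0.27 and -0.28) and the receptor gene Lifr a higher one (0.14 and 0.13), the latter lost on the loess scale. Of 9 DNA methylation neighbourhoods 5 were called, all higher: the methyltransferase gene Dnmt3a (0.20 and 0.19), Uhrf1 of maintenance methylation (0.24 and 0.28), and the demethylation genes Tet2 (0.17 and 0.21), Tet3 (0.38 and 0.29) and Tdg (0.24 and 0.35). On the loess scale only the call for Tet3 was kept among these 5.

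Metabolic genes were counted in the same way. Around PPAR and lipid genes 22 of 352 intervals were higher and 24 (6.82%) lower. Around Ppargc1a, Rxra and Acsl1 the calls of the list were most frequent (3 higher and 4 lower, 3 and 3, and 3 and 1). Of 21 neighbourhoods 4 were higher, a share near that over all neighbourhoods: Pparg itself (0.33 and 0.28, limma adjusted p 8.8e-04 and 0.00254), the oxidation enzymes Hadha (0.38 and 0.56) and Acadm (0.24 and 0.22), and Dgat2 of triglyceride synthesis (0.22 and 0.20). Slc27a1, a fatty acid transporter, had a lower one (-0.17 and -0.17). Pparg libraries, relative to the WT mean, spanned -0.08 to 0.08 in WT and 0.22 to 0.41 in the knockouts, so the knockout libraries lay above WT without overlap. Of its 13 intervals 2 were higher and 1 was lower, and its start interval did not pass, as given above. Around sterol and fatty acid synthesis genes 34 of 316 intervals were higher and 27 (8.54%) lower, with 30 higher and 10 lower on the loess scale. Sqle, an early enzyme of sterol synthesis, had 10 of 35 intervals higher (0.47 and 0.49, limma adjusted p 8.0e-05 and 5.5e-05), with libraries at -0.08 to 0.13 in WT and 0.44 to 0.54 in the knockouts, and the fatty acid elongase gene Elovl6 14 of 62 (0.31 and 0.31). Insig1, a sensor of sterols, was higher at 0.22 and 0.20, a call lost on the loess scale. Around glycolysis genes 13 of 288 intervals were higher and 34 (11.8%) lower, but 27 higher and 17 lower on the deposited scale, 30 and 15 on library totals and 14 and 20 on the loess scale. Around Slc2a3, Hk2 and Pfkp the calls of the list were most frequent (1 higher and 7 lower, 3 and 3, and 4 and 2). Of the glycolysis neighbourhoods, Ldhb (-0.38 and -0.40), Eno1 (-0.35 and -0.31) and Pkm (-0.23 and -0.21) had lower neighbourhoods and Pfkp (0.14 and 0.15) a higher one. Around mTOR pathway genes 20 of 395 intervals were higher and 35 (8.86%) lower. Around Rptor, Deptor and Rragc the calls of the list were most frequent (4 higher and 8 lower, 6 and 2, and 2 and 5). Of their neighbourhoods, Deptor, an inhibitor within mTOR complexes, was higher (0.27 and 0.27), as were Eif4ebp1 (0.27 and 0.20) and Eif4ebp2 (0.26 and 0.19), the translation repressors that mTOR inactivates. The calls for Pfkp and Eif4ebp2 were lost on the loess scale. Over all 46 lists and classes the share of intervals called lower ran from 5.93% (lysosome and autophagy genes) to 14.9% (FGF and ERK genes), and the share called higher from 0.913% (Hox genes) to 10.8% (sterol and fatty acid synthesis genes).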

How the data were processed

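ATAC-seq of 12 paused libraries was analysed, 4 each of WT, Smad2_KO1 and Smad2_KO2, grouped by the labels. Per the submitters' processing notes, the tools were FastQC, Trim Galore, Bowtie2 2.4.1, MACS3 3.0.3 and DiffBind 3.16.0, with mm10 as the build; duplicate handling and shifting of Tn5 cuts are not given in the sources used here. The deposited values are normalized signal per interval of 201 bases, made by the authors as reads divided by 1 factor per library. Whole reads could be recovered for 100% of values (within 0.03 of a whole multiple). The authors' deposited log2 fold change, p-value and false discovery rate columns compare all 8 knockout with the 4 WT libraries and were used only for a count of shared calls.

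Here log2(value + 1) was centred for each library on its median log2 ratio to the mean of all libraries and fitted with limma 3.58.1 in R 4.3.3 (eBayes with trend, line as the only factor, Benjamini-Hochberg adjustment over all intervals, neighbourhoods or windows). edgeR 4.0.16 (quasi-likelihood) on the recovered reads called 14339 higher and 23509 lower. The limma fit was tested on simulated data. Genes came from a RefSeq table of GRCm38.p6 with 21900 protein-coding genes, of which 17492 had a start and strand. Class means and read shares were compared by exact two-sided permutation over the 495 splits of 8 knockout and 4 WT libraries. Neighbourhoods needed 5 intervals and 1 Mb windows 20.

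Named intervals and gene starts are the 8 and 6 per direction with the largest smaller fold change of the lines, among those called with both lines, without overlap between knockout and WT libraries and with a mean of 50 or more in the highest line, 1 per gene. Neighbourhoods and windows are the 10 and 5 per direction with the largest smaller difference. Smad2, Nodal, Lefty1, Lefty2 and Pparg were always named, and so were the 3 members with the most called intervals of a list that is described. List members with a called neighbourhood and the sites within loci were named after their values were seen. A few genes that these rules name, and 1 window, are not reported here. The comparison, members and lists were chosen with earlier results of these data known. Alternatives were other scalings, pseudocounts and filters, the replicate number as a block, knockout libraries averaged by number, other distance limits and leaving out libraries; 2 fits without a shared number were added after seeing the data. Between the knockout lines, deviations from the line mean correlated at 0.034 to 0.187 for same-numbered libraries and at -0.134 to 0.044 for differently numbered ones. Between WT and the knockouts the range was -0.007 to 0.063 with the same number and -0.084 to 0.101 with different numbers. Numbers were therefore not taken to pair WT with knockout samples.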

Additional observations from a re-analysis of the deposited data

Results flagged for a closer look

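Of the 195 groups of 4 libraries checked, 11 held a library whose gap to the nearest other was above Dixon's 95% critical value, and chance alone gives about 9.75. Among the intervals with the largest changes, WT replicate 1 had 8.64 near Hadh, against 19.4 to 21.5 in the other WT libraries. At Ptprs, Smad2_KO1 replicate 1 had 65.6 against 41.7 to 44.9, and Smad2_KO2 replicate 2 had 68.2 against 42.7 to 46.0. The same Smad2_KO2 library had 18.0 near Lrrc8b, against 9.85 to 11.2. Near Pudp, Smad2_KO2 replicate 3 had 16.8 against 12.0 to 12.8. In the neighbourhoods of Slc27a5 and Gm3604 the mean log2 signal of Smad2_KO1 replicate 4 was 5.50 (others 5.34 to 5.35) and that of Smad2_KO1 replicate 3 was 5.15 (others 5.07 to 5.08).

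Smad2_KO2 replicate 4 lay above the other Smad2_KO2 libraries at gene ends. Its mean log2 signal was 7.21 at gene starts, where the others had 7.10 to 7.12, and 6.35 at ends of unknown strand, where they had 6.29 to 6.30. Gene starts took 21.2% of its reads and 19.8 to 19.9% of theirs. Ends of unknown strand took 4.41% against 4.18 to 4.20%.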

How the results depend on the processing

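Counts moved with scaling, filter and grouping. The deposited scale gave 23477 higher and 12816 lower intervals, 4611 and 295 neighbourhoods and 1528 and 30 windows, and library totals 27458 higher and 10917 lower intervals, 5728 and 198 neighbourhoods and 1750 and 12 windows. The loess scale gave 13245 lower intervals, 965 higher neighbourhoods and 225 higher and 490 lower windows. Of the calls, 60.1% of the higher and 50.0% of the lower intervals were kept there. With a mean of 50 or more there were 6802 higher and 5485 lower intervals, 946 and 492 neighbourhoods and 347 and 130 windows. A log2 fold change of at least 1 left 3225 higher and 2227 lower intervals. The 8 knockout libraries as 1 group gave 34452 and 40880 intervals and 3284 and 1660 neighbourhoods. The fits with no number in both lines, which have fewer samples and were chosen after seeing the data, gave 1793 higher and 4487 lower intervals, 317 and 131 neighbourhoods and 298 and 90 windows, or 2243 higher and 5516 lower intervals, 491 and 188 neighbourhoods and 371 and 103 windows. Windows numbered 428 and 100 at 2 Mb and 419 and 333 with a pseudocount of 8. Without WT replicates 1 and 2, 1209 neighbourhoods and 365 windows were higher. Without WT replicates 3 and 4, 565 neighbourhoods and 132 windows were lower.

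Position classes lost or changed their call under many settings, and the cause was not tested beyond the smaller number of samples in fits that average or leave out libraries. In the order gene start, end of unknown strand, gene body, near intergenic and distal, the knockout minus WT differences that missed the threshold were -0.17, -0.096, 0.079, 0.036 and 0.044 after averaging by number, -0.052, -0.032, 0.052, 0.024 and 0.013 with a mean of 50 or more, -0.19, -0.11, 0.064, 0.013 and 0.025 without WT replicates 1 and 2, -0.16, -0.089, 0.085, 0.050 and 0.055 without WT replicates 3 and 4, and -0.16, -0.095, 0.078, 0.037 and 0.044 or -0.17, -0.091, 0.085, 0.041 and 0.051 with no number in both lines. On the loess scale gene starts differed by -0.016, ends of unknown strand by -0.022 and gene bodies by 0.0059, while far ends (-0.042), near (-0.021) and distal intervals (-0.041) reversed. Gene starts differed by -0.071 on the deposited scale and -0.035 on library totals, and missed the threshold on both. Ends of unknown strand reversed there, to 0.0043 and 0.039. Far ends passed at 0.12 and 0.15 on these scales, at 0.033 with TMM and at 0.038 with ends at 2500 bases. A pseudocount of 8 gave 0.0045 near and 0.0078 in distal intervals, and distal beyond 100 kb gave 0.039, none of which passed.

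Leaving out 1 library at a time gave 10457 to 16873 higher and 16150 to 24778 lower intervals, 1398 to 1980 and 625 to 930 neighbourhoods and 477 to 707 and 167 to 212 windows. The class differences then ran from -0.22 to -0.12 (gene start), 0.010 to 0.029 (far end), -0.13 to -0.066 (unknown strand), 0.067 to 0.090 (body), 0.020 to 0.045 (near) and 0.032 to 0.055 (distal). With the replicate number as a block, 17747 intervals were higher and 27119 lower, but the numbers were not taken to pair WT with knockout samples. Of the comparisons of named intervals with an alternative setting, 891 stayed on the same side of the threshold, 14 lost the call and 4 gained one. For named neighbourhoods 552 stayed and 4 lost the call, and for named windows all 272 stayed. None of these reversed. Weak intervals limit precision: 4 libraries per line and a signal near 10 make small changes undetectable.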

Other observations

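Further gene classes were counted by the nearest gene, beside 5.93% higher and 8.57% lower over all intervals and 14.3% and 6.72% over all neighbourhoods. Around genes with histone symbols, H2al2a and H2al1n among them, 16 of 260 intervals were higher and 38 (14.6%) lower. The counts were 14 and 15 on the loess scale and 24 and 18 on the deposited scale. Around ribosomal protein genes 48 of 853 were higher and 101 (11.8%) lower, but 41 and 39 on the loess scale and 72 and 49 on the deposited scale. Around H2al2a 9 of 43 intervals were higher and 1 lower. Pax, Lhx and Nkx genes, homeobox factors of organ patterning, had 23 higher and 65 lower of 552, with a median log2 fold change of -0.11. Formative and primed genes had 25 and 48 of 435, of which 16 of the lower were around Sox4, a transcription factor of neural and mesenchymal progenitors, and 12 around Pou3f1, a POU factor of the early neural plate. On library totals the formative and primed list and the Pax, Lhx and Nkx class held more higher than lower intervals, as did olfactory receptor genes. Around olfactory receptor genes 82 of 1204 intervals were higher and 110 (9.14%) lower, and of their 44 neighbourhoods 7 were higher and 2 lower, near the shares over all neighbourhoods. Zinc finger genes had 48 higher and 17 lower neighbourhoods of 253.

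Single members of a class went opposite ways. Among glutamate receptor genes, Grik4 had 14 higher and 1 lower of 66 intervals and Grin2a 1 higher and 12 lower of 82. Among cadherins, the adhesion proteins, Cdh6 had 13 higher and 1 lower of 61 and Cdh2 4 higher and 15 lower of 94. Zfp516 had 17 higher and 4 lower of 113, while Zfp608 had 3 higher and 18 lower of 73. Whether the members of a class differ from each other was not tested.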
